A study of Mus musculus with 12 samples.

Results

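The pyruvate dehydrogenase complex and its regulators were followed through 10 genes in mouse osteoclasts, the large cells of the macrophage lineage that break down bone: the kinases Pdk1, Pdk2, Pdk3 and Pdk4, the phosphatase subunits Pdp1, Pdp2 and Pdpr, and the complex's own subunits Pdha1, Pdhb and Dlat. They were taken by name, through their Ensembl identifiers in GENCODE M21, and are 10 of the 55414 genes in the count files. The set was chosen by name with measured values in view: Pdk2 had stood out in the comparison of Notch2 mutant with wild type Hes1 loxP cells. Values of these genes in that comparison are therefore a description and carry no test. All 10 had counts, and 9 of the 10 passed the filter on low counts that left 13403 genes for testing. Pdk4 did not.

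The study grew osteoclasts from bone marrow macrophages of male mice aged 7 to 8 weeks, with sex-matched littermates as controls. M-CSF, a macrophage growth factor, was present at 30 ng/ml. Osteoclast formation was started with RANKL on day 3 and went on for 4 days. Each of 4 groups had 3 libraries: wild type Hes1 loxP, Notch2 mutant Hes1 loxP, wild type Hes1 deletion and Notch2 mutant Hes1 deletion. Wild type here refers to Notch2 only: the Hes1 loxP groups, controls included, carry a Hes1 gene flanked by loxP sites and not deleted. The labels do not say which Notch2 mutation was used, how Hes1 was deleted, or whether a library came from 1 mouse; they call the libraries biological replicates, and p-values measure the spread between them. NOTCH2 is a receptor that acts through the DNA-binding protein RBPJ, and Hes1 encodes a repressor that is a classical Notch target.

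Pyruvate dehydrogenase sits in the mitochondrial matrix and turns pyruvate, the end product of glycolysis, into acetyl-CoA for the citric acid cycle. The kinases phosphorylate its E1 alpha subunit and switch the complex off, and the phosphatases remove the phosphate and switch it on. Osteoclasts are rich in mitochondria, and bone resorption also draws on glycolysis.

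Between 13832368 and 19293772 counts were assigned to genes per library. Hes1 was close to undetected throughout, with 6, 11 and 6 counts in wild type Hes1 loxP libraries, 3, 2 and 2 in Notch2 mutant Hes1 loxP, 0, 0 and 2 in wild type Hes1 deletion and 0, 1 and 1 in Notch2 mutant Hes1 deletion. The Hes1 deletion groups held 2 counts each against 23 and 7, and with so few reads this checks the deletion only weakly. Notch2 itself lay between 143 and 175 CPM (its count scaled to the library's total over genes) in all 12 libraries, which does not mark the mutation. All 10 osteoclast markers listed for the check were detected in every group, and their summed level was 31219 to 50298 CPM against 7854 to 9903 for macrophage markers. Wild type Hes1 deletion replicate 3 stood apart from its group: its counts differed from those of the other libraries of the group with chi-square values per gene of 8.41 and 8.04, against 2.40 between the rest. That 2.40 was the lowest value within any group, and Notch2 mutant Hes1 loxP replicates 2 and 3 were at 7.77. Values without wild type Hes1 deletion replicate 3 are given beside several of the results that use it, and for each comparison of the 9 tested genes that uses it.

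The sizes of the genes differ, so levels of different genes were compared as CPM per kilobase of union exon length. Over the 12 libraries, Pdha1, which encodes the E1 alpha subunit that the kinases phosphorylate, was highest at 91.2 ± 3.19 CPM per kilobase (SD, n = 12). Pdhb, the E1 beta subunit, followed at 68.0 ± 3.80 and Dlat, the E2 acetyltransferase core, at 35.2 ± 1.42. The ranges of these 3 subunit genes over the 12 libraries did not overlap.

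Among the kinases, Pdk1 was highest at 25.4 ± 3.68 CPM per kilobase, followed by Pdk3 at 17.9 ± 0.947 and Pdk2 at 5.45 ± 1.01. The ranges of Pdk1 and Pdk3 overlapped, and those of the other neighbours in the order did not. Pdpr, a regulatory subunit of the phosphatase, was at 8.92 ± 0.685, and the catalytic subunits Pdp2 and Pdp1 were at 3.64 ± 0.281 and 2.72 ± 0.166. Pdk4 was far below every other gene, at 0.0510 ± 0.0334. The order of the means was the same when length was taken from the longest transcript, but not that of every library. In Notch2 mutant Hes1 loxP replicate 3, Pdhb was then 1.01 times Pdha1. Pdk1 was above Dlat in that library, at 0.381 and 0.363 of Pdha1.

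**Figure D1:**
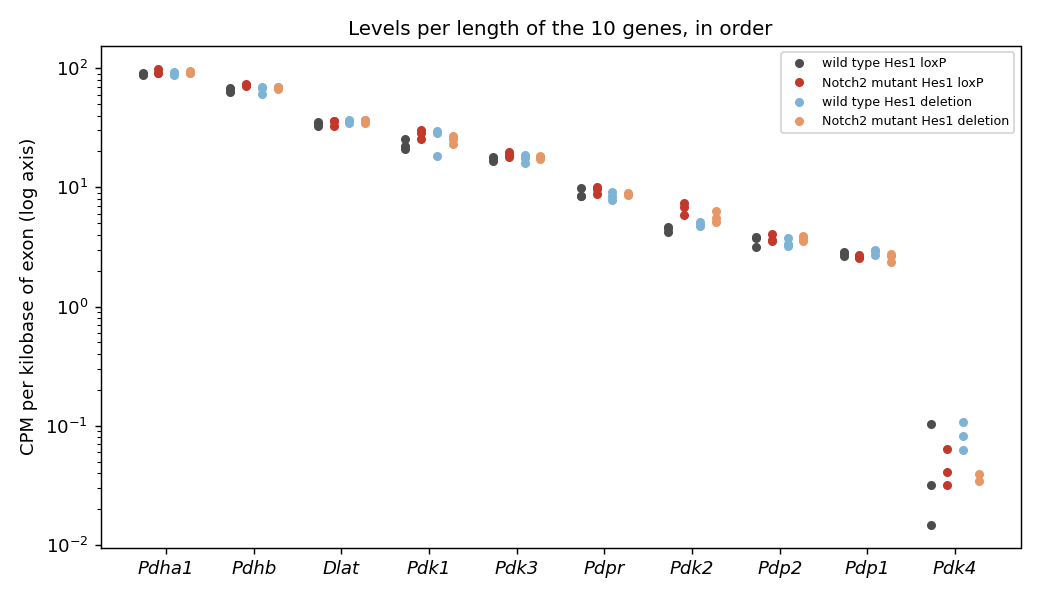
Level of each gene in CPM per kilobase of union exon length, on a logarithmic axis, with 1 point per library and colours for the 4 groups. The subunit genes Pdha1, Pdhb and Dlat stand highest, Pdk1 and Pdk3 overlap, and Pdk4 lies far below; its 1 library with 0 counts cannot be drawn on this axis.

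Set as shares of the summed level of the 4 kinase genes, Pdk1 made up 51.9% ± 2.66 (SD, n = 12), Pdk3 36.9% ± 2.67, Pdk2 11.1% ± 1.40 and Pdk4 0.107% ± 0.0770. In all 12 libraries the order of the kinases was therefore led by Pdk1. The summed kinase level was 7.69 ± 0.838 times the summed level of Pdp1 and Pdp2, and 0.535 ± 0.0525 of the Pdha1 level. With longest transcripts in place of union exons, the shares of Pdk1 and Pdk3 were 56.3% and 32.3% and the ratio of kinases to phosphatases was 10.3.

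Among the 9 tested genes Pdk2 varied most over the libraries, with its highest value 1.76 times its lowest. Pdk1 followed at 1.64 times, and the other 7 lay between 1.13 and 1.30. In wild type Hes1 loxP libraries Pdk2 was at 14.6, 14.4 and 13.3 CPM. In Notch2 mutant Hes1 loxP libraries it was at 23.5, 18.7 and 21.8 CPM. Every Notch2 mutant library was above every wild type library, as for 9.82% of all genes tested, and the fitted difference was 0.62 ± 0.10 on the log2 scale (SE), a fold of 1.53. This is the comparison in which Pdk2 was first noted, so these values are given as a description.

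In wild type Hes1 deletion libraries Pdk2 was at 15.4, 16.3 and 14.9 CPM, and in Notch2 mutant Hes1 deletion libraries at 17.6, 16.2 and 20.2 CPM. The lowest mutant library lay inside the range of the wild type ones, so these groups overlapped; 12.5% of all genes tested had groups apart here, in either direction. The difference was 0.22 ± 0.10 (log2, SE), a fold of 1.17 with a 95% interval of 1.00 to 1.36. It did not pass the test: the edgeR quasi-likelihood adjusted p was 0.745, and the unadjusted value of that model was 0.0478. These 6 libraries are separate from those in which Pdk2 was noted. The direction was the same as in Hes1 loxP cells, and the size was smaller. The interaction, which is the Notch2 difference in Hes1 deletion cells minus that in Hes1 loxP cells, was -0.39 ± 0.15, with an edgeR adjusted p of 0.999 and an unadjusted value of 0.0165. It draws on the Hes1 loxP libraries in which Pdk2 was noted, so it is no independent test of whether the differences differ.

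The promoter of Pdk2 is shown because this gene varied most of the 9 tested, beside that of Pdk1, the kinase with the highest level. Each run is the 250 bases before a RefSeq start site (GRCm38.p6), read 5′ to 3′ on the gene's strand, with the CACGTG E-box in capitals. For Pdk2 the window is chr11:95041372-95041621 on the minus strand, and for Pdk1 chr2:71872974-71873223 on the plus strand.
Pdk2: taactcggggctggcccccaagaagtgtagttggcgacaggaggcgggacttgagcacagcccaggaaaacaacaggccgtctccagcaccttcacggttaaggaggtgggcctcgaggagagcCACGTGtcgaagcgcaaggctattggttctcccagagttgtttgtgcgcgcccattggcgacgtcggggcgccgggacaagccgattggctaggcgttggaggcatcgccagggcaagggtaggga
Pdk1: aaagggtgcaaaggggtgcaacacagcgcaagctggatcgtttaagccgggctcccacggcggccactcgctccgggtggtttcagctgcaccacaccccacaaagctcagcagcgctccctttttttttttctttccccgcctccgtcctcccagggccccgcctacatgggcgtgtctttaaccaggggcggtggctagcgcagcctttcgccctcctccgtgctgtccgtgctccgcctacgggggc
The E-box, which is bound by several basic helix-loop-helix factors, lies at -126 from the Pdk2 start and contains the HIF core ACGTG on both strands. It is also found at -219 in Pdp2 and at -172 in Pdpr. The HIF core outside an E-box is found at -53 in Pdk3 and at -248 in Pdhb, and no Pdk1 window holds it. Over 32851 windows of the same length, 6.02% hold CACGTG and 16.6% hold ACGTG, on either strand. The windows printed hold neither the RBPJ core GTGGGAA, which 5.42% of windows hold, nor the N-box CACNAG, which 36.7% hold. A second Pdk2 start has no match to these 4 motifs, while a second Pdk1 start has the N-box at -149 and at -134. Pdk4 has an N-box at -180 and the RBPJ core at -37, and Pdha1 has the RBPJ core at -176. RefSeq windows were found for 9 of the 10 genes. A match describes the letters and says nothing about binding.

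Pdk1 encodes the kinase isoform that is a well-known target of the hypoxia-inducible factor. In wild type Hes1 loxP libraries it was at 199, 173 and 162 CPM, and in Notch2 mutant Hes1 loxP libraries at 223, 197 and 236 CPM. The ranges of CPM touch at 199 and 197, and after TMM scaling they are apart, with mutant libraries higher, as for 9.82% of all genes tested. The fitted difference was 0.32 ± 0.13 (log2, SE). In wild type Hes1 deletion libraries Pdk1 was at 223, 229 and 144 CPM, and in Notch2 mutant Hes1 deletion libraries at 211, 180 and 197 CPM. The low value of 144 CPM came from the library that stood apart, and the remaining wild type libraries were above every mutant library. The difference was -0.01 ± 0.13, with an edgeR adjusted p of 0.993.

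Without that library, Pdk1 was -0.21 ± 0.08 in Notch2 mutant against wild type Hes1 deletion cells, and 0.33 ± 0.08 in Hes1 deletion against Hes1 loxP cells of wild type. The interaction was -0.52 ± 0.11 without it and -0.33 ± 0.18 with it. Without it, edgeR adjusted p-values were 0.735 and 0.165 for the differences and 0.125 for the interaction, so none passed. The description of Pdk1 across Hes1 deletion cells thus rests on this library. Pdk2 moved less: without the library its differences were 0.61 in Hes1 loxP cells and 0.18 in Hes1 deletion cells.

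**Figure D2:**
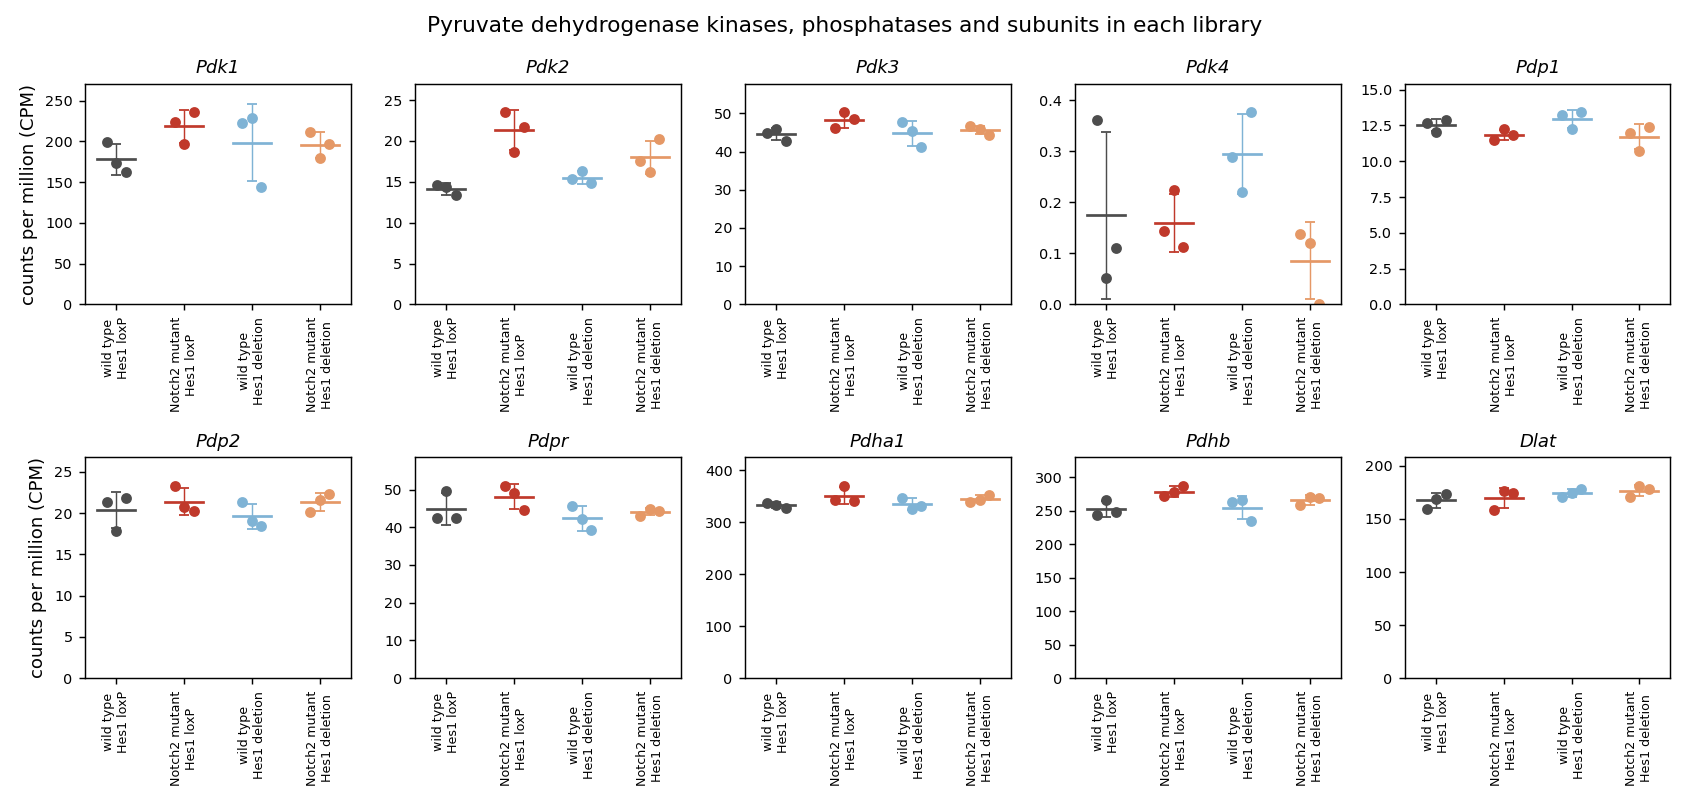
CPM of each of the 10 genes in every library, in 4 groups of 3, with horizontal lines at the group mean and error bars of 1 SD; each panel has its own vertical axis starting at 0. Pdk2 is above all wild type values in the 3 Notch2 mutant Hes1 loxP libraries, and in Pdk1 wild type Hes1 deletion replicate 3 lies lowest at 144 CPM.

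Pdk3, a kinase encoded on the X chromosome, was at 45.0, 45.8 and 42.7 CPM in wild type Hes1 loxP libraries and at 46.1, 50.2 and 48.4 CPM in Notch2 mutant ones. The mutant libraries were all above the wild type ones by a small margin, with a difference of 0.14 ± 0.06 (log2, SE). Mutant libraries were all higher for 9.82% of all genes tested, and the genes were chosen with this comparison known. In Hes1 deletion cells it was at 47.7, 45.5 and 41.2 CPM in wild type and 46.7, 45.8 and 44.4 CPM in Notch2 mutant libraries. Those values overlapped, with a difference of 0.04 ± 0.06, which was -0.03 ± 0.06 without wild type Hes1 deletion replicate 3.

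Pdk4, the kinase best known for its induction by fasting and fatty acids, was almost silent. The counts were 5, 1 and 2 in wild type Hes1 loxP, 2, 4 and 2 in Notch2 mutant Hes1 loxP, 5, 4 and 6 in wild type Hes1 deletion and 2, 2 and 0 in Notch2 mutant Hes1 deletion, 35 in all. In Hes1 deletion cells all 3 mutant libraries were below all 3 wild type libraries. Of all genes tested, which leave out Pdk4, 12.5% had groups apart here in either direction. The Pdk4 ratio was 0.290, with a 95% interval of 0.0701 to 0.911 that covers counting error only. An exact permutation test (two-sided) on the CPM gave p = 0.1, the smallest that 3 against 3 allows, and 0.4 after Benjamini-Hochberg adjustment over 4 comparisons. In Hes1 loxP cells the ratio was 1.03, with an interval of 0.338 to 3.16. With 3 libraries a group the permutation test could not pass the threshold, so whether Pdk4 differed was not settled.

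Of the phosphatase genes, Pdp1 lay between 10.7 and 13.4 CPM, Pdp2 between 17.9 and 23.3 CPM and Pdpr between 39.2 and 50.9 CPM over the 12 libraries. Against wild type, their differences in Notch2 mutant Hes1 loxP cells were -0.06 ± 0.09 for Pdp1, 0.10 ± 0.09 for Pdp2 and 0.12 ± 0.08 for Pdpr (log2, SE). In Hes1 deletion cells they were -0.14 ± 0.09, 0.13 ± 0.09 and 0.07 ± 0.08, and without wild type Hes1 deletion replicate 3 they were -0.12 ± 0.11, 0.083 ± 0.10 and 0.0076 ± 0.079. The groups overlapped for all 3 genes in both comparisons. Pdpr shares 169 bases with an opposite-strand transcript that had 85 counts against 8952 for Pdpr.

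Of the subunit genes, Pdha1 was at 338, 333 and 327 CPM in wild type Hes1 loxP libraries and at 343, 369 and 340 CPM in Notch2 mutant ones, a difference of 0.10 ± 0.04. Pdhb was at 244, 265 and 248 CPM against 271, 278 and 286 CPM, a difference of 0.17 ± 0.06. For both genes every mutant library was above every wild type library, as for 9.82% of all genes tested. The genes were chosen with this comparison known, so this is a description. In Hes1 deletion cells the groups overlapped for both, with differences of 0.06 ± 0.04 and 0.07 ± 0.06. The value of Pdhb was 0.0096 ± 0.050 without wild type Hes1 deletion replicate 3. Dlat lay between 159 and 181 CPM and overlapped in both comparisons, with differences of 0.04 ± 0.05 and 0.03 ± 0.05. Pdha1 overlaps 603 bases of the opposite-strand gene Map3k15, which had 2105 counts against 67861 for Pdha1.

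Across the 9 tested genes in Hes1 loxP cells, 8 had a positive Notch2 difference and 1, Pdp1, a negative one. The median was 0.12, against 0.0029 over all genes tested. Of the 9, 1 gene, Pdk2, passed an edgeR adjusted p of 0.05, where 0.776% of all genes did in either direction and 0.142% with higher values. After TMM scaling, 5 of the 9 (Pdk1, Pdk2, Pdk3, Pdha1 and Pdhb) had mutant libraries all above wild type libraries, where 9.82% of all genes did. When Notch2 mutant Hes1 loxP replicate 3 was left out, 0 of the 9 passed, with Pdk2 at 0.59 and an edgeR adjusted p of 0.0530. Without wild type Hes1 deletion replicate 3, which shares the fit's estimate of spread, 2 passed, the second being Pdk1 at 0.32 with an edgeR adjusted p of 0.0382. Since the genes were chosen with this comparison known, nothing is read from these shares.

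In the separate Hes1 deletion libraries, 7 of the 9 differences were positive and 2 negative, with a median of 0.06 against 0.0014 over all genes. Without wild type Hes1 deletion replicate 3, 6 were positive and 3 negative, with a median of 0.0096. None of the 9 passed in edgeR, where 0.0149% of all genes did; adjusted p-values ran from 0.745 to 0.993, 1 gene (Pdk2) was under an unadjusted 0.05, and DESeq2 and limma-voom also called 0. For 0 of the 9 did the groups fail to overlap, where 12.5% of all genes had groups apart in either direction.

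**Figure D3:**
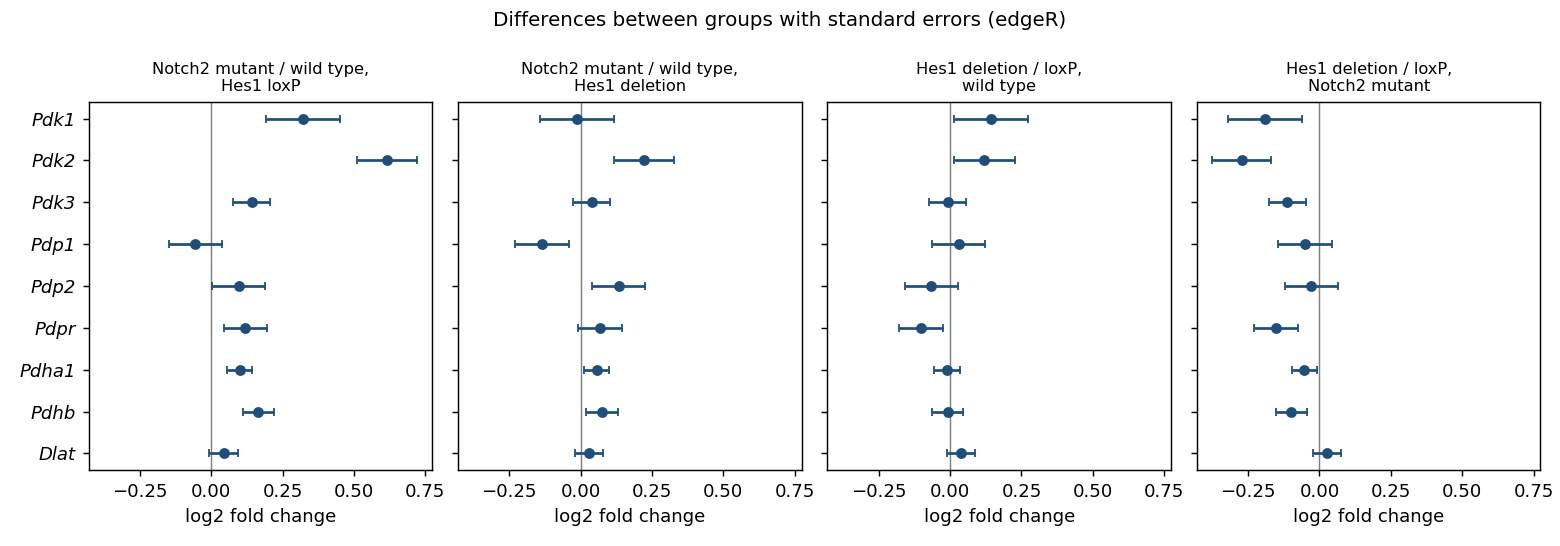
Log2 fold changes of the 9 tested genes with standard errors from edgeR, in the 4 comparisons of 2 groups. Pdk2 stands at 0.62 in Notch2 mutant against wild type Hes1 loxP cells and at 0.22 in Hes1 deletion cells, and most other values lie near 0.

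Hes1 deletion was compared with Hes1 loxP within each Notch2 genotype. Each of these comparisons shares its Hes1 loxP libraries with the one by which the genes were chosen. In wild type cells 4 differences were positive and 5 negative, from -0.10 for Pdpr to 0.14 for Pdk1. Without wild type Hes1 deletion replicate 3, 7 were positive and 2 negative, from -0.044 for Pdpr to 0.33 for Pdk1. With all libraries, edgeR adjusted p-values ran from 0.940 to 0.992. Of all genes 0.0373% passed and 0 of the 9 did; 0 of the 9 were under an unadjusted 0.05, DESeq2 called 0, and all 9 overlapped, where 10.3% of all genes had groups apart.

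In Notch2 mutant cells 8 of the 9 differences after Hes1 deletion were negative and 1, Dlat, was positive. Pdk2 was at -0.27 ± 0.10, with an edgeR adjusted p of 0.890 and an unadjusted value of 0.0162. Of all genes 0.0373% passed, and 0 of the 9 did, also by DESeq2. After TMM scaling, the Hes1 deletion libraries were all lower for 3 of the 9 (Pdk3, Pdpr and Pdhb), where 5.47% of all genes had lower libraries throughout. This comparison shares its Notch2 mutant Hes1 loxP libraries with the one by which the genes were chosen. In the interaction 8 of the 9 estimates were negative (9 of the 9 without wild type Hes1 deletion replicate 3), 0 passed, and 0% of all genes did (506 of 13403 were under an unadjusted 0.05 in edgeR, and DESeq2 called 0).

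The levels of some cell types' marker genes differed between Notch2 mutant and wild type libraries. In this comparison marker genes passed the threshold in Hes1 loxP cells only. In Hes1 loxP cells, summed osteoclast markers were 38832 to 41775 CPM in wild type and 45600 to 50298 CPM in Notch2 mutant libraries, with 9 of 10 genes positive and 1 past the threshold. Macrophage markers were 9053 to 9903 and 7854 to 8745 CPM, with 7 of 10 negative and 3 past the threshold. Stromal and osteoblast markers were 250 to 295 and 116 to 246 CPM, with 9 of 10 tested genes negative and 1 past the threshold. In the first of these 2 groups Lum was at 0, and in the second Bglap was.

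Neutrophil markers were 254 to 328 CPM in wild type and 192 to 248 CPM in Notch2 mutant Hes1 loxP libraries, with 8 of 8 genes negative and 1 past the threshold. Dendritic cell markers were 71.6 to 107 and 88.5 to 122 CPM, with 4 of 4 tested genes positive, a median of 0.42 and 0 past the threshold. Endothelial markers were 4.69 to 6.23 and 2.96 to 4.24 CPM, with Tek and Emcn at 0 in the mutant group. Lymphocyte markers were 2.09 to 4.12 and 3.37 to 4.12 CPM. Muscle and fat express much Pdk4 and Pdk2. Skeletal muscle markers summed to 1.72 to 3.01 CPM over all libraries, with Myh1 at 0 in every group, and adipocyte markers to 0.868 to 1.92 CPM, with Cidec and Lep at 0 in every group. In Hes1 deletion cells the osteoclast sums were 31219 to 37446 in wild type and 37471 to 41656 CPM in Notch2 mutant libraries. The value of 31219 came from wild type Hes1 deletion replicate 3. The stromal sums were 330 to 348 and 208 to 295 CPM. Here 9 of 10 osteoclast markers were positive and 9 of 10 tested stromal markers negative, with 0 past the threshold in either list. The other sums of these lists overlapped: macrophage (8838 to 9121 and 8543 to 9250 CPM), neutrophil (186 to 258 and 181 to 233 CPM), dendritic (93.9 to 133 and 104 to 131 CPM), lymphocyte and endothelial. In Hes1 deletion against Hes1 loxP, osteoclast markers were negative for 9 of 10 genes in wild type and 10 of 10 in Notch2 mutant cells. In each, 1 passed the threshold. Stromal markers were positive for 10 of 10 and 9 of 10 tested genes, and macrophage markers for 3 of 10 and 8 of 10, with 0 past it. The part of these cell types in the differences of Pdk2 and the other genes was not tested. In bulk RNA, fewer cells of a type and less RNA per cell cannot be told apart.

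The rest of the pathway was read from 4 gene lists. Of the 7 other genes of the complex and its cofactors (E3, the E3-binding protein, lipoate and thiamine genes), 7 were tested and 0 passed in either Notch2 comparison; 5 were positive in Hes1 loxP cells (median 0.06) and 4 in Hes1 deletion cells (median 0.00). Of the 17 genes for pyruvate supply, export and other fates, 15 were tested and 0 passed, with 12 positive in Hes1 loxP cells (median 0.09) and 9 in Hes1 deletion cells (median 0.00). The lowest edgeR adjusted p in this list was 0.104 in Hes1 loxP cells, for Ldhb, the lactate dehydrogenase B chain, at 0.20 ± 0.06. In Hes1 deletion cells Ldhb was at 0.22 ± 0.06, with an edgeR adjusted p of 0.434. Of the 8 genes of the related 2-oxoacid dehydrogenase complexes, 7 were tested and 0 passed, with 4 and 7 positive.

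Of the 13 genes for transcription factors and coactivators known to act on kinase genes, 12 were tested and 2 passed in Hes1 loxP cells, where 0.776% of all genes tested (104 of 13403) passed. The list was chosen with earlier results of these data known, so nothing is read from this share. The values that follow are a description. Hif1a, which encodes the hypoxia-inducible factor subunit, was at 131, 114 and 119 CPM in wild type and at 92.0, 98.9 and 86.0 CPM in Notch2 mutant libraries. All mutant libraries were lower, and the difference of -0.37 ± 0.06 had an edgeR adjusted p of 0.00660. Rxrb, a retinoid X receptor, was at 81.5, 80.9 and 90.9 CPM against 106, 99.5 and 103 CPM, with 0.31 ± 0.06 and an edgeR adjusted p of 0.0193. In Hes1 deletion cells 0 of the 12 passed; Hif1a was at 110, 106 and 116 CPM in wild type and 110, 106 and 100 CPM in Notch2 mutant libraries.

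**Figure D4:**
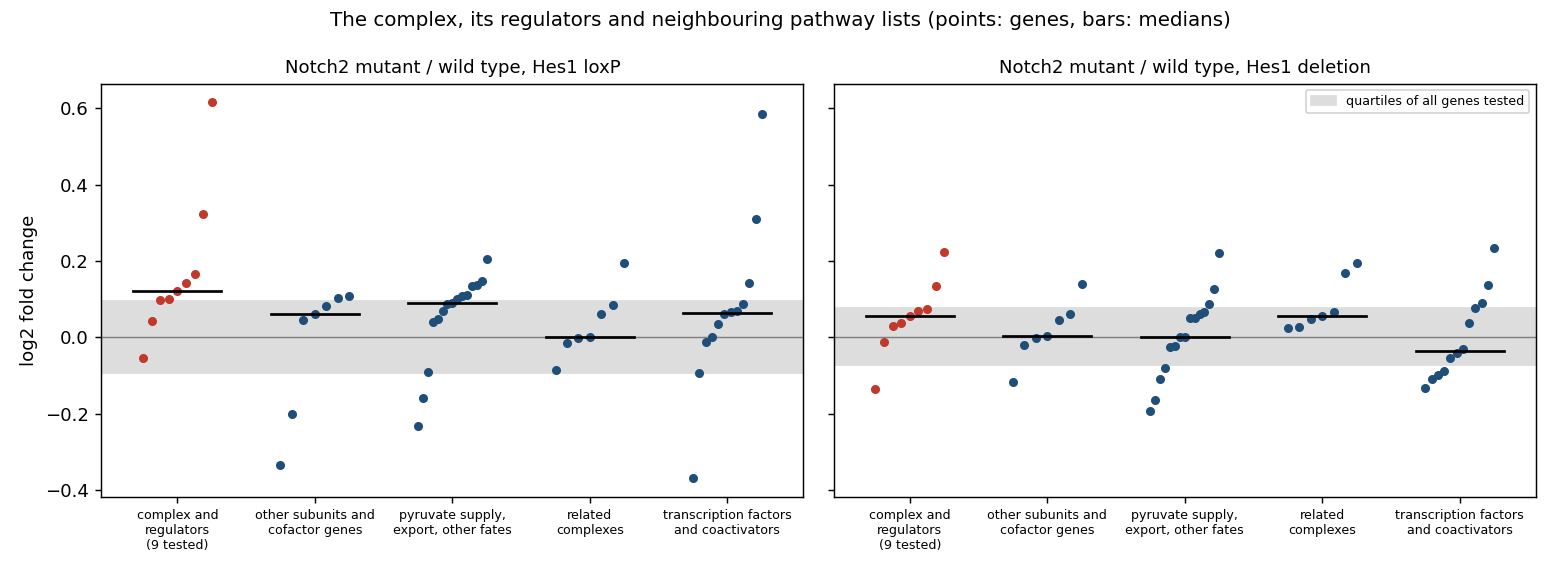
Log2 fold changes of the 9 tested genes of the complex and its regulators and of the tested genes of the 4 lists, in Notch2 mutant against wild type cells, for Hes1 loxP and Hes1 deletion, with 1 point per gene, bars at the medians and a grey band between the quartiles of all genes tested. In the transcription factor list, Hif1a at -0.37 and Rxrb at 0.31 in Hes1 loxP cells were the 2 genes that passed. The genes and lists were chosen with earlier results of these data known.

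The genes most like Pdk2 were found over 11135 genes by the root mean square difference of standardised log2 CPM over the 12 libraries, where 0 would be an identical shape and the median over all genes was 1.35. Idh3g, a subunit of mitochondrial isocitrate dehydrogenase, was closest at 0.287. Ndufa4, of the respiratory chain, was at 0.339 and Echs1, of fatty acid oxidation, at 0.355. Glb1, the lysosomal beta-galactosidase, and Gabarapl1, of autophagy, followed at 0.366 and 0.375. Standardising removes the size of a change. In Notch2 mutant against wild type Hes1 loxP cells these 5 genes differed by 0.17 to 0.21 (log2), against 0.62 for Pdk2. None of them passed there, with edgeR adjusted p-values of 0.0566 to 0.117. Of the other 8 tested genes of the complex and its regulators, Pdhb ranked closest to Pdk2 at 367, followed by Pdk1 at 819, Pdha1 at 868, Pdk3 at 1215, Pdpr at 1500 and Pdp2 at 1675. Dlat ranked 4842 at 1.29, and Pdp1 ranked 8326 at 1.56, farther from Pdk2 than the median gene. The 12 libraries come from the same 4 groups and 1 sequencing pool, and the likeness is a description.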

How the data were processed

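Messenger RNA of 12 osteoclast cultures was sequenced as stranded, paired-end 75 bp libraries in 1 pool, per the labels' protocols. The authors deposited 1 table of whole-number counts per gene for each library, not normalized. The submitters' processing notes name the build GRCm38 and the tools HISAT2, SAMtools, Picard, HTSeq and DESeq2. Not given in the sources used here were versions, annotation release and strand setting. If strand was not used, reads of overlapping genes on opposite strands cannot be told apart.

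Rows that name no gene held 15.8 to 19.0% of each file's total and were left out. Of the 55414 identifiers, 52081 matched a GENCODE M21 gene, which gave symbols and exon lengths. All 4 groups entered 1 edgeR 4.0.16 quasi-likelihood fit (R 4.3.3) with TMM scaling and filterByExpr (minimum count 10, minimum total 15), and p-values were adjusted by Benjamini-Hochberg over 13403 genes (threshold 0.05). CPM used all counts assigned to genes, without TMM. On simulated counts of 13230 genes, 200 were changed in the comparison of Notch2 mutant with wild type Hes1 loxP. The fit recovered 91% of 1.5-fold and 99% of 2-fold changes, with 10 false calls. The changed genes had mean counts of at least 50, and the simulated spread followed the trend over genes, not each gene's own. These shares therefore do not give the recovery for each gene tested. Alternatives were DESeq2 1.42.0, limma-voom (limma 3.58.1), other size factors, filters and lengths, a replicate block, the compared groups alone and leaving out each library.

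The 10 genes, the gene lists and the marker lists were chosen with earlier results of these data known. All 10 genes are named in every comparison; from the lists, genes past the threshold are named, up to 4 per list and comparison, and the 5 genes most like Pdk2 among those whose mean log2 CPM was 1 or more. Ldhb was named after its values were seen.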

Additional observations from a re-analysis of the deposited data

How the results depend on the processing

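Of 846 recomputed log2 differences of the 9 tested genes, 820 kept their direction and their side of the threshold, 22 changed sign, 3 passed only under the alternative and 1 no longer passed. Pdk2 in Notch2 mutant against wild type Hes1 loxP cells ranged from 0.55 to 0.71 and passed in 18 of 19 alternatives. Pdk2 was noted in that comparison and the alternatives reuse its libraries, so these passes are a description and no test. In Hes1 deletion cells Pdk2 ranged from 0.13 to 0.30 and passed in 0 of 19. With no filter on low counts, the fit called 657, 138, 135, 110 and 63 genes in the Notch2 comparison in Hes1 loxP cells, that in Hes1 deletion cells, Hes1 deletion in wild type, Hes1 deletion in Notch2 mutant cells and the interaction, against 104, 2, 5, 5 and 0. It then called 2 of the 9 in the first (Pdk1 too) and 1 in the interaction (Pdk1, -0.33, edgeR adjusted p = 0.00989). DESeq2 called 242 genes in the first. A mean count of at least 50 gave 1, 2 and 2 genes in the second to the fourth, and limma-voom 1 in the second and 3 in the fourth. Leaving out 1 library gave 26 to 289, 0 to 5, 3 to 26, 3 to 6 and 0 to 12 genes, and 0 to 2 of the 9 in the first; 289, 5, 26 and 12 came without wild type Hes1 deletion replicate 3. The cause was not tested.

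Signs changed for values near 0. Pdk1 in Hes1 deletion cells was 0.017 by limma-voom and -0.21 to 0.11 without 1 library, and Pdk3 -0.027 to 0.092. For Hes1 deletion in wild type cells, the ranges were -0.063 to 0.053 for Pdk3, -0.045 to 0.0043 for Pdha1 and -0.047 to 0.053 for Pdhb. For Hes1 deletion in Notch2 mutant cells they were -0.095 to 0.020 for Pdp1, -0.062 to 0.030 for Pdp2 and -0.021 to 0.056 for Dlat. In the interaction they were -0.015 to 0.13 for Pdp2, -0.13 to 0.018 for Pdpr and -0.060 to 0.027 for Dlat.

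Between wild type and Notch2 mutant Hes1 loxP groups, same-numbered libraries deviated from their group means with correlations of 0.098, 0.107 and 0.077. Differently numbered ones had -0.075 to -0.020 there. In every other pair of groups some same-numbered correlation was negative. Whether the numbers pair the samples was therefore not settled. With a replicate block, 148, 2, 5, 4 and 0 genes passed, and 1, 0, 0, 0 and 0 of the 9. Depth limits Pdk4, with 35 counts in all.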
